A study of Mus musculus with 9 samples.

Results

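The 5 genes described here are the adult haemoglobin chain genes Hbb-bs, Hbb-bt, Hba-a1 and Hba-a2 and the erythroid haem synthase Alas2, taken by symbol from the 21853 genes that all 9 deposited tables share. Poly(A) RNA from mouse brain was sequenced in 3 groups of 3 libraries. Every group had received an adeno-associated virus with a GFAP promoter, which drives expression mainly in astrocytes. WT-Control (wild type) and HD-Control (N171-82Q, a transgenic model of Huntington's disease that expresses an N-terminal fragment of mutant huntingtin from a prion promoter) received pAAV-GFAP(pro)-Control-mCherry. HD-WNT5B (N171-82Q) received pAAV-GFAP(pro)-WNT5B-P2A-mCherry, so all mice carried a virus and no wild-type group received the WNT5B virus. By the series' design text the virus went into the striatum, whereas each library's tissue label reads brain. Not given in the sources used here are the mice's age, sex, strain background and perfusion, or which library came from which animal, so the p-values below measure the spread between these libraries, which may be technical.

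Haemoglobin carries oxygen in red blood cells as a tetramer of alpha-like and beta-like chains, each holding a haem. Red cell precursors make almost all of it, and Alas2 catalyses the first step of haem synthesis in those cells. Other cells use the housekeeping enzyme Alas1 for that step, and the remaining enzymes are shared. In brain tissue, globin transcripts come largely from reticulocytes and red cells within vessels, although neurons, astrocytes and oligodendrocytes have also been described to express some. In bulk tissue, fewer cells of a type and less RNA per cell cannot be told apart.

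The deposited values are read counts divided by 1 factor per library, here called normalised read counts, and are not divided by gene length. Reads counted over the listed genes, rounded to 1000, were 67765000 to 77779000 in WT-Control, 69779000 to 90639000 in HD-Control and 37252000 to 52141000 in HD-WNT5B. Reads outside these genes are not in the deposited values. The HD-WNT5B libraries stood apart from the other 6: 14204 to 14506 genes were above 0 there, against 16957 to 17282 in the control-virus groups. Their replicates also spread more, with a median SD of 0.228 on the log2 scale over genes with a mean of at least 100, against 0.0387 in WT-Control and 0.0324 in HD-Control. Every library with the WNT5B virus belongs to this group, so these library differences and the virus cannot be told apart in the comparisons below. All 13 brain cell markers checked, among them the neuronal Snap25, the striatal Ppp1r1b and Drd1, the myelin gene Mbp and the astrocyte gene Aqp4, were above 0 in every library. Mouse Wnt5b had values of 184, 22.5 and 212 in HD-WNT5B replicates 1, 2 and 3 and 44.2 to 63.8 in HD-Control, so those groups overlapped. The species of the WNT5B insert is not given in the sources used here, so this gene need not count the transgene.

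The 4 globin genes form pairs of near-identical copies, and the sequences around the differing base of each pair show how little separates them. On GRCm38 with GENCODE M21 genes, Hbb-bs (ENSMUSG00000052305.6) lies at chr7:103826534-103828096 and Hbb-bt (ENSMUSG00000073940.3) at chr7:103812524-103813996, both on the minus strand in the beta-globin cluster. Hba-a1 (ENSMUSG00000069919.7) lies at chr11:32283511-32284465 and Hba-a2 (ENSMUSG00000069917.7) at chr11:32296489-32297298, both on the plus strand in the alpha-globin cluster. The coding sequences of Hbb-bs and Hbb-bt are identical at 440 of 441 bases, and those of Hba-a1 and Hba-a2 at 425 of 426. Each stretch below is 60 bases of coding exon, written 5′ to 3′ on the coding strand, with the 1 base that differs within the pair in capitals. The beta stretches lie at chr7:103826668-103826727 (Hbb-bs) and chr7:103812659-103812718 (Hbb-bt), and the alpha stretches at chr11:32284313-32284372 (Hba-a1) and chr11:32297130-32297189 (Hba-a2).
Hbb-bs: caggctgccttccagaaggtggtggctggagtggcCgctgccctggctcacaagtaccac
Hbb-bt: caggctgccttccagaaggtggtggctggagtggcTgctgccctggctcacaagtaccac
Hba-a1: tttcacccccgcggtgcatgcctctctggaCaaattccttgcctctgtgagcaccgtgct
Hba-a2: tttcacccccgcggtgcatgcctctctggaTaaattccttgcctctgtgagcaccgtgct
Over the whole transcripts the copies differ more. Of all stretches of 100 bases, 62.6% of those in the Hbb-bs transcript also occur in Hbb-bt and 54.8% of those in Hbb-bt occur in Hbb-bs. The same share was 56.5% for Hba-a1 in Hba-a2 and 74.5% for Hba-a2 in Hba-a1. A read inside such a stretch cannot be told between the copies, and how these reads were handled is not given in the sources used here. Every value of the 5 genes was a whole number of reads to within 0.01 read, so no visible fraction of a read was divided between copies. The level of a single copy is therefore less certain than the sum of its pair, and both are given below.

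Alas2 (ENSMUSG00000025270.13) lies on the plus strand at chrX:150547375-150570638. It shares 15.48% of its exon bases with Apex2, a DNA repair endonuclease gene on the opposite strand, and with a microRNA gene. The library kit does not mark strand, so reads in that overlap cannot be told apart. Apex2 itself had values of 297 to 320 in WT-Control, 547 to 577 in HD-Control and 219 to 413 in HD-WNT5B, an order of groups other than that of Alas2. The exons of the 4 globin genes overlap no other annotated gene.

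The promoters are shown because the 5 genes were lower together in HD-Control while Hbb-bt parted from the rest in HD-WNT5B. Each is the 250 bases before the start that RefSeq annotates (GRCm38.p6, 5 of 5 genes matched), which for some of these genes lies inside a longer GENCODE gene. Capitals mark matches to CACCC, GATA and CCAAT on either strand and to TATAA on the strand shown. The windows are at chr7:103827929-103828178 (Hbb-bs), chr7:103813924-103814173 (Hbb-bt), chr11:32296242-32296491 (Hba-a2) and chrX:150547167-150547416 (Alas2).
Hbb-bs: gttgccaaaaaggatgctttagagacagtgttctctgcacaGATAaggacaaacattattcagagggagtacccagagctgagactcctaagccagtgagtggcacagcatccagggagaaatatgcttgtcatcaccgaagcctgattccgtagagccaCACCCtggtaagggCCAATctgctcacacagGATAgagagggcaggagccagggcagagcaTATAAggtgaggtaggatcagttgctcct
Hbb-bt: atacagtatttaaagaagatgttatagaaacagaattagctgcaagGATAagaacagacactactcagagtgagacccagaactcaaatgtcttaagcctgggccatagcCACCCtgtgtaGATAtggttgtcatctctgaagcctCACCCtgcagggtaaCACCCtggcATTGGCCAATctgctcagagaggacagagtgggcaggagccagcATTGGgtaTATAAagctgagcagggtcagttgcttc
Hba-a2: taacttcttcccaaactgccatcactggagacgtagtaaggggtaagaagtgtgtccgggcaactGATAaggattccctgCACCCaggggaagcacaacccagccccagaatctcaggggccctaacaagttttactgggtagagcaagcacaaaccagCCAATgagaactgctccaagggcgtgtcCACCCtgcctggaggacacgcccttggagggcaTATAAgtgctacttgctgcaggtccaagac
Alas2: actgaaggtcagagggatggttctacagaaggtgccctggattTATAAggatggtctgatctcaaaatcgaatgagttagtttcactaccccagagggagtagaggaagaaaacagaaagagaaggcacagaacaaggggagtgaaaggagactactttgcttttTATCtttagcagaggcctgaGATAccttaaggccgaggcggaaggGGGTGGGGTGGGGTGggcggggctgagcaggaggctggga
The Hba-a1 promoter is not printed since its window of 300 bases shares a run of 297 bases with that of Hba-a2. Between Hbb-bs and Hbb-bt, 178 bases of the 250-base windows align as identical. CACCC occurred once in the Hbb-bs window and at 3 places in that of Hbb-bt, where CCAAT also had 3 matches against 1 in Hbb-bs. Among 32851 RefSeq promoters of the same length, 52.0% held CACCC, 53.6% GATA, 33.8% CCAAT and 16.0% TATAA, and 1.46% held all 4. The 4 globin windows each held all 4 motifs, and that of Alas2 held all but CCAAT. These motifs are familiar elements of globin promoters, so finding them here is no test against that background. The windows of Hba-a1 and Hba-a2 are also nearly 1 sequence. TATAA lay at -207 to -203 from the start in Alas2 and between -30 and -23 in the globins, so it is not the same placement. A match here describes letters in a window and is not a binding site.

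In the HD-Control libraries all 5 genes were lower than in WT-Control, to between 19.2% and 41.9% of the WT-Control mean. Hbb-bs, the more abundant beta chain, had 1968, 2007 and 1948 normalised reads in the 3 WT-Control libraries and 605, 543 and 566 in HD-Control. Its log2 fold change was -1.79 (SE 0.08, adjusted p = 1.6e-06 by limma with Benjamini-Hochberg adjustment over 15411 genes), and the groups did not overlap. Hbb-bt, the second adult beta chain, had values of 320, 313 and 320 in WT-Control and 61.4, 56.0 and 65.9 in HD-Control. That drop was the steepest of the 5 in this comparison, at -2.33 on the log2 scale (SE 0.57, adjusted p = 0.00985). The larger error of Hbb-bt reflects the spread of its HD-WNT5B values, since all 9 libraries share 1 estimate of spread per gene.

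Hba-a1, an adult alpha chain, had values of 533, 518 and 507 in WT-Control and 216, 216 and 221 in HD-Control. Its log2 fold change was -1.24 (SE 0.10, adjusted p = 2.0e-05), the smallest of the 5. Hba-a2, the other alpha copy, went from 358, 301 and 361 in WT-Control to 110, 113 and 140 in HD-Control (-1.47 on the log2 scale, SE 0.16, adjusted p = 1.2e-04). With the copies added together, the alpha chains summed to 860 ± 36.4 (SD, n = 3) in WT-Control and 339 ± 19.3 in HD-Control, and the beta chains to 2292 ± 26.3 and 632 ± 33.9. Both sums were lower in every HD-Control library than in every WT-Control library. Fitted as 1 feature each, the log2 fold changes were -1.34 for alpha and -1.85 for beta.

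Alas2 had 107, 84.8 and 87.6 normalised reads in WT-Control and 37.5, 30.2 and 20.3 in HD-Control, again without overlap. Its log2 fold change of -1.60 (SE 0.56, adjusted p = 0.0466) passed the threshold of 0.05 narrowly. The shared spread includes the scattered HD-WNT5B values: with only the 2 groups compared in the fit the adjusted p was 1.3e-07, with a weight per group 2.5e-07, and without HD-WNT5B replicate 1 it was 0.00175. Leaving out any 1 of the 6 control-virus libraries gave -1.78 to -1.38 and lost the call (adjusted p = 0.0747 to 0.145). The gene was also thinly covered, with 33 to 47 reads in the HD-Control libraries and 105 to 152 in WT-Control.

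All 5 genes were called lower, where 20.7% of the 15411 tested genes were called lower, 24.5% higher and 45.1% in either direction. Groups that did not overlap with HD-Control below WT-Control occurred for the 5 genes and for 40.4% of tested genes, and the opposite order for 43.6%. Counted from the most negative change among the 15411 genes, Hbb-bt ranked 115, Hbb-bs 304, Alas2 405, Hba-a2 509 and Hba-a1 789. The median change over all tested genes was 0.02. Genes with transcripts under 1000 bases, the class of all 4 globins, had a median of 0.08 in this comparison, so the globins lay well below other short transcripts.

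**Figure D1:**
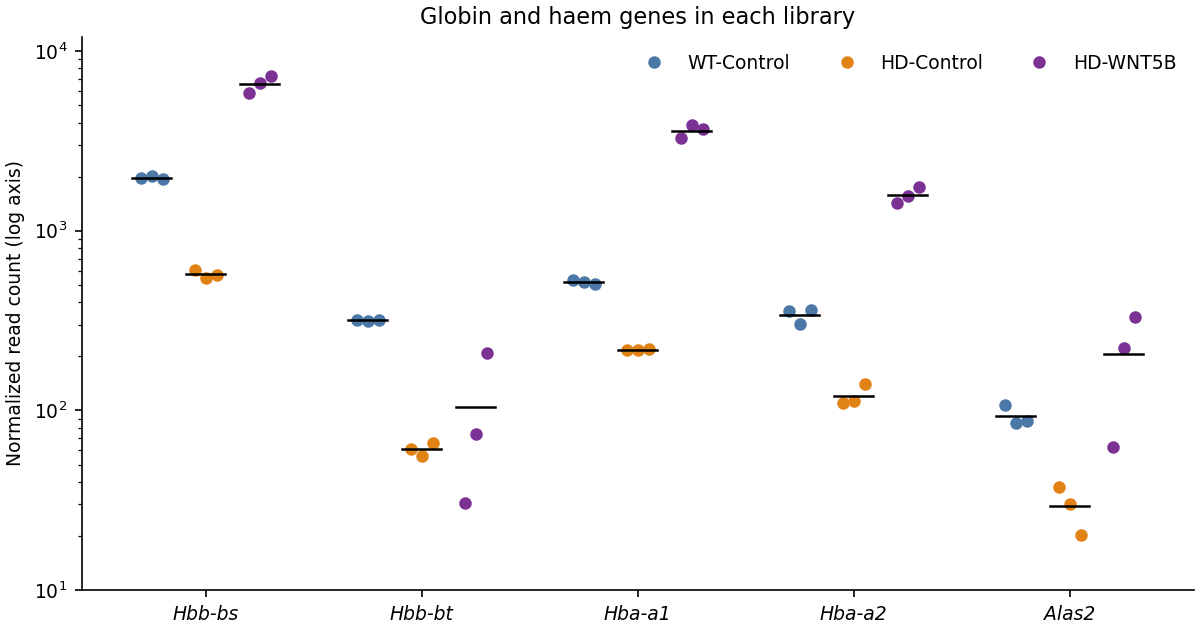
Normalised read counts (log axis) of the 5 genes in each of the 9 libraries, with points for libraries and a black line at the group mean. Every HD-Control point lies below every WT-Control point of the same gene, and the HD-WNT5B points of Hbb-bt and Alas2 are the most scattered, from 30.4 to 208 and from 62.6 to 332.

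In the HD-WNT5B libraries the abundant globins were an order of magnitude higher than in HD-Control, and Hbb-bt was not. Hbb-bs reached 5831, 6647 and 7250 normalised reads, against a mean of 571 ± 31.5 (SD, n = 3) in HD-Control. The ratio of means was 11.5 and the log2 fold change 3.51 (SE 0.08, adjusted p = 1.8e-09). Hba-a1 reached 3270, 3890 and 3665, which is 16.6 times the HD-Control mean (log2 fold change 4.03, SE 0.10, adjusted p = 1.7e-09). Hba-a2 reached 1422, 1563 and 1741, which is 13.0 times that mean (log2 fold change 3.67, SE 0.16, adjusted p = 6.5e-08). For these 3 genes the lowest HD-WNT5B library was far above the highest library of either other group. With a weight per group, which lets the spread differ between groups, their SEs were larger. They were 0.18 for Hbb-bs, 0.21 for Hba-a1 and 0.44 for Hba-a2, and all 3 genes stayed called.

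Hbb-bt stood at 30.4, 73.9 and 208 normalised reads in HD-WNT5B, from 17, 46 and 97 reads. These values surrounded the HD-Control range of 56.0 to 65.9. The log2 fold change of 0.35 had a 95% interval of -0.95 to 1.65 and was not called (adjusted p = 0.589). Without HD-WNT5B replicate 1 it was 0.99 (adjusted p = 0.0449) and without replicate 3 it was -0.34 (adjusted p = 0.371), so single libraries decided its sign. The interval of Hbb-bt ended below the lower bound of Hbb-bs, 3.32, although the coding sequences differ at the single base shown above.

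Alas2 was 62.6, 223 and 332 in HD-WNT5B, each above the highest HD-Control value of 37.5. Its log2 fold change was 2.44 (SE 0.56, adjusted p = 0.0036) and stayed called when any library was left out (1.95 to 3.13). With a weight per group the SE was larger, at 0.88 (adjusted p = 0.0212). HD-WNT5B replicate 1 had the lowest value of its group for each of the 5 genes, by a small margin for Hbb-bs, Hba-a1 and Hba-a2 and by a wide one for Hbb-bt and Alas2.

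Of the 5 genes, 4 were called higher in HD-WNT5B than in HD-Control, where 35.8% of tested genes were called higher, 41.7% lower and 77.5% in either direction. The same 4 had groups that did not overlap, as did 36.2% of tested genes in that direction and 42.5% in the other. From the most positive change, Hba-a1 ranked 164, Hba-a2 273, Hbb-bs 328, Alas2 1094 and Hbb-bt 5687 of 15411.

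Against WT-Control, with which it shares neither genotype nor virus, HD-WNT5B was higher for 3 of the globins and lower for Hbb-bt. The log2 fold change was 1.73 for Hbb-bs (SE 0.08, adjusted p = 1.4e-07), 2.79 for Hba-a1 (SE 0.10, adjusted p = 1.5e-08) and 2.20 for Hba-a2 (SE 0.16, adjusted p = 1.8e-06). Hbb-bt was below every WT-Control library, at 32.7% of the mean (log2 fold change -1.98, SE 0.57, adjusted p = 0.0111). Alas2 overlapped between the groups and was not called (0.84, 95% interval -0.45 to 2.12, adjusted p = 0.201). Without HD-WNT5B replicate 1 its value was 1.53 (adjusted p = 0.00206). The 3 genes called higher stand beside 35.9% of tested genes called higher, the 1 called lower beside 42.1% called lower, and 77.9% were called in either direction. Groups did not overlap upward for 36.2% of tested genes and downward for 43.2%. This comparison uses the same HD-WNT5B libraries as the one above and the same WT-Control libraries as the first, so its calls are not separate evidence.

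**Figure D2:**
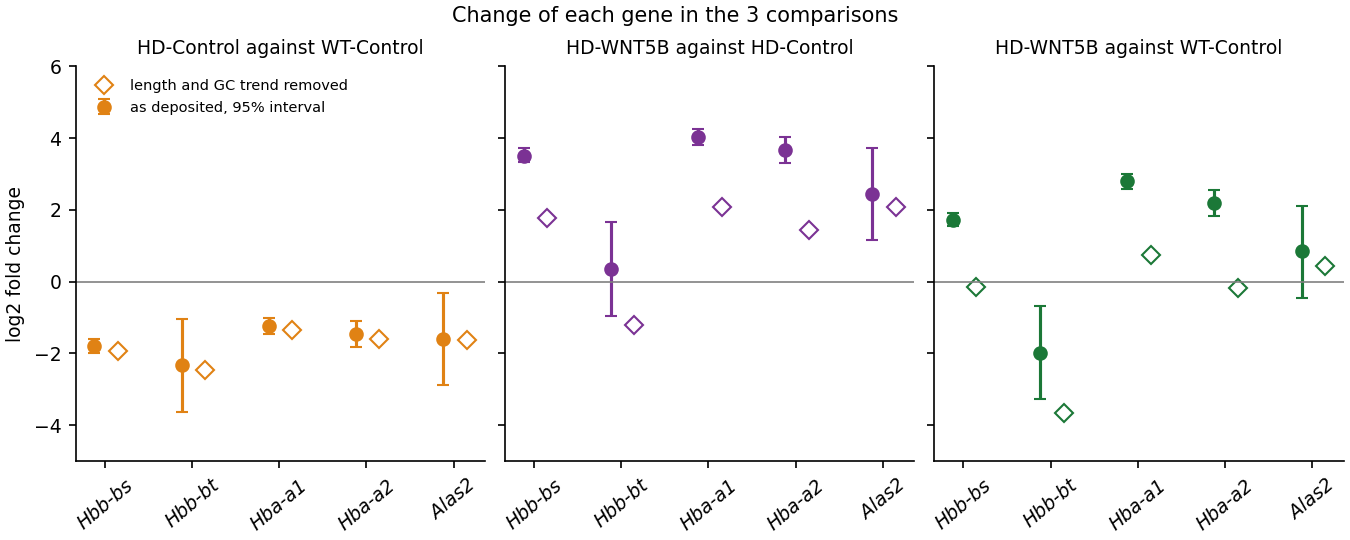
Log2 fold change of each gene in the 3 comparisons. Filled circles with bars are the values as deposited with 95% intervals, and open diamonds are the values after a trend with transcript length and GC content was removed. All 10 symbols of the first comparison lie below 0, and in the comparison of HD-WNT5B with WT-Control the diamonds of Hbb-bs (-0.15) and Hba-a2 (-0.17) lie at the other side of 0 from their circles.

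The size of the HD-WNT5B changes moved with transcript length across all genes. In HD-WNT5B against HD-Control, the 622 tested genes with a longest transcript under 1000 bases had a median log2 change of 1.97, with quartiles of 0.54 and 3.10, and 71.7% of them were called higher. The median was 0.86 for 1000 to 2000 bases, -0.12 for 2000 to 4000 bases and -0.81 for 4000 bases and longer. The globin transcripts measure 554 bases (Hba-a2), 628 (Hbb-bs), 699 (Hba-a1) and 703 (Hbb-bt), and that of Alas2 2037 bases. Hbb-bs, Hba-a1 and Hba-a2 were thus above the upper quartile of their length class in that comparison, and Hbb-bt was below the lower quartile. Alas2, at 2.44, was above the upper quartile of its class, 0.92. Against WT-Control the short class had a median of 1.90 and quartiles of 0.62 and 3.22, so Hbb-bs, Hba-a1 and Hba-a2 lay inside the range of other short transcripts and Hbb-bt below it.

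A spline of log2 transcript length and of GC content, fitted in each library and removed, was added after the data were seen. With it, HD-WNT5B against HD-Control gave 1.76 for Hbb-bs, 2.07 for Hba-a1, 1.43 for Hba-a2 and 2.07 for Alas2, all called, and -1.22 for Hbb-bt (adjusted p = 0.0632). HD-WNT5B against WT-Control gave 0.73 for Hba-a1 (adjusted p = 9.8e-05) and -3.67 for Hbb-bt, which kept their direction and call. In that comparison Hbb-bs turned to -0.15 (adjusted p = 0.0319) and Hba-a2 to -0.17 (adjusted p = 0.32), while Alas2 stood at 0.44, not called. The fall in HD-Control against WT-Control kept its direction and call for all 5 genes, at -2.45 to -1.34. The part of the length trend in the HD-WNT5B values of these genes was not tested beyond this. The gene lists below are set beside all tested genes and not beside genes of like length.

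**Figure D3:**
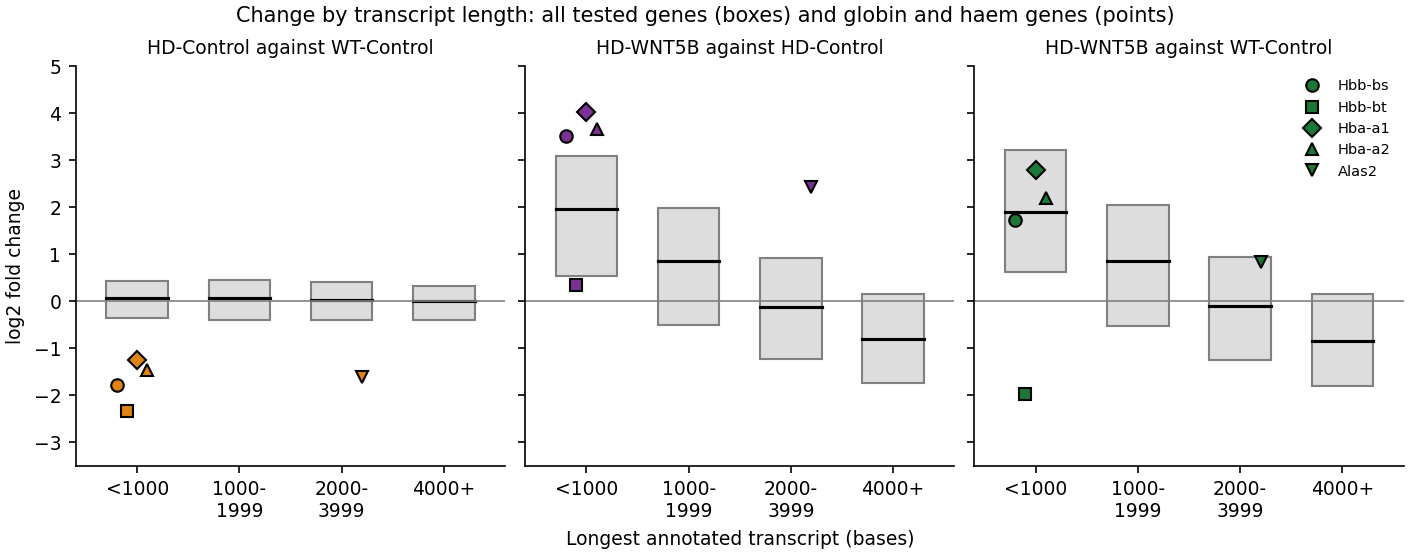
Log2 fold change by length of the longest annotated transcript. Boxes span the quartiles of all tested genes in a class with a line at the median, and symbols are the 5 genes. The boxes step down with length in both HD-WNT5B panels, from a median of 1.97 to -0.81 and from 1.90 to -0.84, and are level near 0 in the first panel.

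Ratios between the globins within a library do not depend on the library's scale. They can still depend on a trend with length or GC content that differs between libraries. The longest alpha transcripts hold 56.9% to 57.2% GC and the beta ones 50.8% to 51.3%. Alpha reads per beta read were 0.389, 0.353 and 0.383 in WT-Control, 0.489, 0.549 and 0.571 in HD-Control and 0.800, 0.811 and 0.725 in HD-WNT5B. The ranges of the 3 groups did not overlap, and the ratio was lowest in WT-Control and highest in HD-WNT5B. The order was the same per kilobase of transcript, with ratios of 0.353 to 0.393, 0.483 to 0.572 and 0.708 to 0.785. In HD-WNT5B against HD-Control, Hba-a2 changed more than Hbb-bs as deposited (3.67 and 3.51). With the length and GC trend removed it changed less (1.43 and 1.76), while Hba-a1 stayed above Hbb-bs (2.07). The part of that trend in the HD-WNT5B ratios was not tested. With 3 libraries against 3, an exact two-sided permutation test cannot give a p below 0.1, so these ratios are described by their ranges alone.

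Hbb-bt made up 14.0%, 13.5% and 14.1% of the beta reads in WT-Control, and each 95% Wilson interval lay within 12.3% to 15.4%. Its share was 9.21%, 9.36% and 10.4% in HD-Control, with intervals spanning 7.43% to 12.4%. In HD-WNT5B the share was 0.519%, 1.10% and 2.79%, with intervals spanning 0.324% to 3.39%. The shares of the 3 groups did not overlap, and the highest in HD-WNT5B was below 1 in 3 of the lowest in HD-Control. Laboratory strains differ in the beta-globin haplotype, and neither the haplotype of these mice nor the handling of reads shared by the copies is given in the sources used here. Whether either differed between the groups was not tested, so the share is one of assigned reads and need not be one of expression. Such intervals cover counting error only, since reads without molecular identifiers are not independent molecules. Hba-a2 took a steadier share of alpha reads: 36.7% to 41.6% in WT-Control, 33.7% to 38.7% in HD-Control and 28.7% to 32.2% in HD-WNT5B. Only the last range stood clear of the others.

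**Figure D4:**
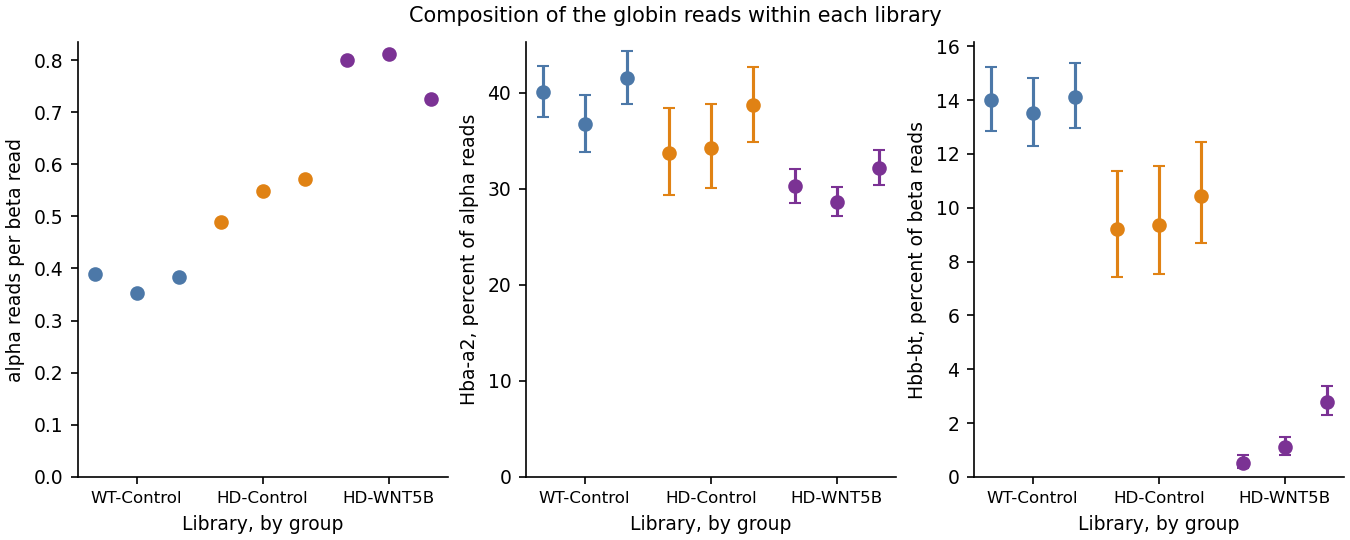
Globin composition in each library, coloured by group in the order WT-Control, HD-Control, HD-WNT5B. The left panel gives alpha reads per beta read, and the middle and right panels give the shares of Hba-a2 and Hbb-bt within their pairs with 95% Wilson intervals. Alpha per beta steps up from 0.353 to 0.389 in WT-Control to 0.725 to 0.811 in HD-WNT5B, while the Hbb-bt share steps down from about 14% to under 3%.

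Per kilobase of transcript, the level order was Hbb-bs, Hba-a1, Hba-a2, Hbb-bt and Alas2 in all 3 groups. In WT-Control the levels per kilobase were 3143 ± 47.8, 744 ± 18.9, 614 ± 60.7, 452 ± 5.71 and 45.7 ± 5.93 (SD, n = 3), and in HD-Control 910 ± 50.2, 311 ± 4.10, 218 ± 29.6, 86.9 ± 7.0 and 14.4 ± 4.23. In HD-WNT5B they were 10471 ± 1134, 5162 ± 449, 2844 ± 289, 148 ± 132 and 101 ± 66.6, and there the last 2 genes could not be ordered beyond their spread. All globin reads together made up 57.4 to 58.1 RPM (share of all reads) in WT-Control, 16.7 to 17.8 in HD-Control and 129 to 161 in HD-WNT5B. Alas2 reads per 100 globin reads were 2.70 to 3.37 in WT-Control and 2.05 to 3.78 in HD-Control, ranges that overlapped, and 0.593 to 2.58 in HD-WNT5B.

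The other haemoglobin chains were near the limit of detection. The 6 embryonic and theta-like chain genes found in the tables, out of 8 sought, summed to 3.23 to 10.2 normalised reads in WT-Control and 1.23 to 11.2 in HD-Control. In HD-WNT5B the sum was 0 to 71.5, where 1 library held 71.5 of Hbq1a, a theta-like chain gene. None of the 6 passed the filter on low values. The non-erythroid globins of neurons and fibroblast-like cells behaved otherwise: neuroglobin (Ngb), cytoglobin (Cygb) and their relatives summed to 4069 to 4240 in WT-Control, 5087 to 5142 in HD-Control and 3916 to 5629 in HD-WNT5B, and the 3 tested were not called in HD-Control against WT-Control.

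The other enzymes of haem synthesis did not fall together in HD-Control. Of the 8 tested, 2 rose and 3 fell against WT-Control, beside 24.5% and 20.7% of all tested genes (median change -0.11, all genes 0.02). Uros, the uroporphyrinogen synthase, fell from 821 ± 10.2 to 438 ± 14.0 (SD, n = 3, log2 fold change -0.90). Fech, the ferrochelatase that inserts iron into the ring, rose from 3036 ± 78.3 to 4487 ± 14.1 (0.56). Urod, the decarboxylase after Uros, fell by 0.30, and Alad, the second enzyme, fell by 0.22. The Alad call was lost, at -0.23 to -0.20, without any 1 of WT-Control replicates 1 and 2 and the 3 HD-Control replicates (adjusted p = 0.0538 to 0.0759). Alas1, which was chosen for mention after its values were seen because it is the housekeeping counterpart of Alas2, had 2340 ± 75.8 in WT-Control and 2787 ± 29.5 in HD-Control (0.25, not called).

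In HD-WNT5B against HD-Control, 6 of the 8 enzymes were called higher and 1 lower, beside 35.8% and 41.7% of all tested genes. Their median change was 1.06, against -0.23 over all genes. Over all genes this change moved with transcript length, from a median of 1.97 under 1000 bases to -0.81 at 4000 bases and longer. The part of that trend in the values of these enzymes was not tested. Alad went to 7334 ± 350 from 680 ± 4.41 (log2 fold change 3.42), Urod to 7999 ± 512 from 1432 ± 55.3 (2.48), Ppox, the protoporphyrinogen oxidase, to 4201 ± 299 from 883 ± 50.2 (2.25), and Fech to 11938 ± 1369 (1.40). Alas1 was the enzyme that fell, to 1632 ± 450 (-0.81), so the 2 synthases of the first step moved in opposite directions in this comparison. Uros stood at 0.53 and was called, but not with a weight per group (adjusted p = 0.0595), and with libraries scaled to equal totals it was at -0.02 (adjusted p = 0.855). Against WT-Control, 5 rose and 2 fell, beside 35.9% and 42.1% of all tested genes (median 1.34, all genes -0.25). Alad stood at 3.20 and Alas1 at -0.56.

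Among 12 carriers of haem and iron at mitochondrial and cell membranes, 2 rose and 3 fell in HD-Control against WT-Control, beside 24.5% and 20.7% of all tested genes. The mitochondrial iron importers went opposite ways: Slc25a37 (mitoferrin-1, the erythroid form) fell from 3161 ± 40.1 to 2055 ± 46.8 (-0.62) and Slc25a28 (mitoferrin-2) rose from 1366 ± 14.6 to 3629 ± 2.91 (1.41). Of the carriers, 5 rose and 4 fell in HD-WNT5B against HD-Control, beside 35.8% and 41.7% of all tested genes, so neither count departs far from the background. Slc25a37 rose to 3933 ± 548 (0.93), Slc25a28 to 9510 ± 742 (1.39), Tmem14c, which acts in porphyrin import, by 1.71, and the porphyrin transporter Abcb6 by 1.25. Flvcr2, a haem and choline transporter gene of the brain vasculature, was listed at 0 in all 3 HD-WNT5B libraries and had 65.3 to 75.2 in HD-Control.

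Of 12 genes of haem breakdown and haemoglobin scavenging, 4 rose and 2 fell in HD-Control against WT-Control, beside 24.5% and 20.7% of tested genes. Hebp1, a haem-binding protein gene, fell from 1251 ± 52.7 to 323 ± 11.3 (-1.94), and Nfe2l2, the oxidative stress factor NRF2, from 1170 ± 42.5 to 456 ± 17.9 (-1.35). Hmox2, the constitutive haem oxygenase, rose by 0.26. Hmox1, the inducible haem oxygenase, chosen for mention after its values were seen, had 253, 209 and 217 in WT-Control and 498, 528 and 517 in HD-Control (1.18). Its call was lost when any 1 of those 6 libraries was left out (1.12 to 1.26, adjusted p = 0.0533 to 0.0782). The HD-WNT5B libraries had 6 of the 12 higher and 4 lower than HD-Control, beside 35.8% and 41.7% of all tested genes. Blvra, a biliverdin reductase, rose by 2.02 and Hmox2 by 1.30, while Lrp1, a receptor that clears haem-haemopexin, fell by 1.48 and Hmox1 by 2.62.

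**Figure D5:**
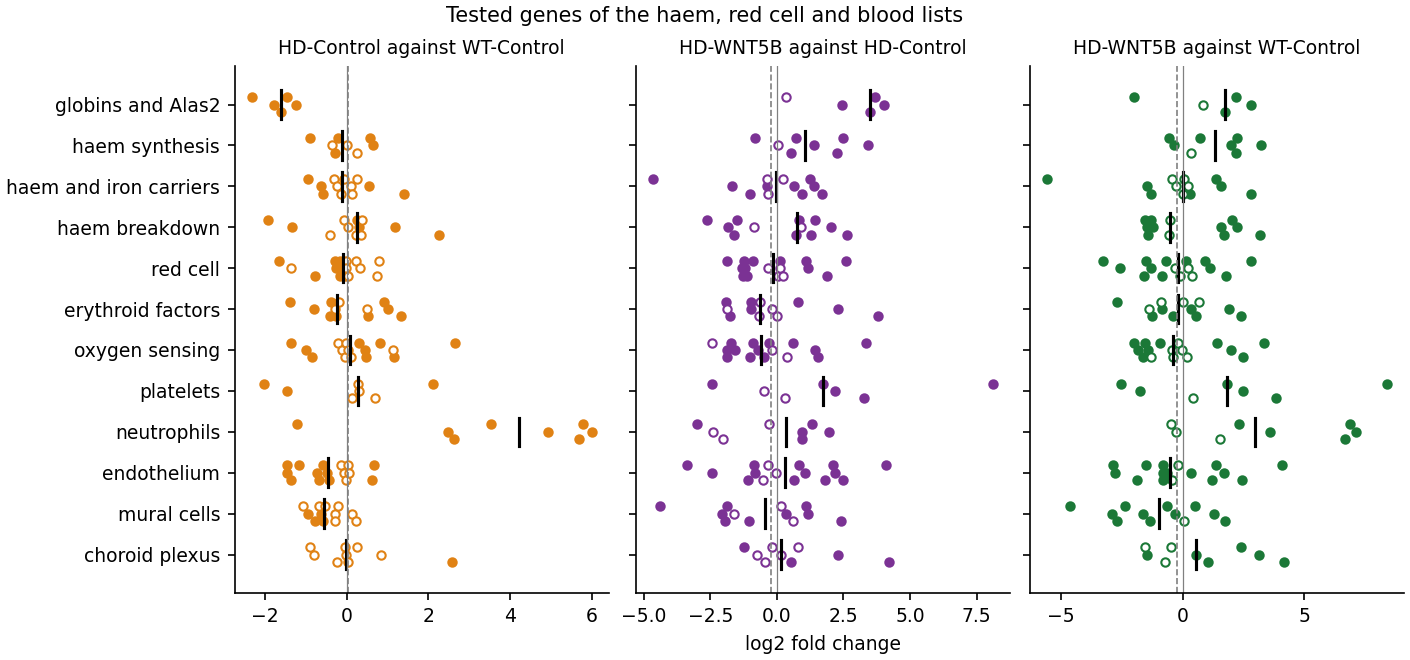
Log2 fold change of every tested gene in 12 gene lists, 1 panel per comparison. Filled points passed an adjusted p of 0.05, open points did not, black bars are list medians and the dashed line is the median of all tested genes. The globins and Alas2 lie to the left in the first panel, at -2.33 to -1.24, where the haem synthesis genes spread on both sides of 0, and mostly to the right in the other panels.

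Several genes that are specific to the red cell membrane were at or near 0. Slc4a1 (the band 3 anion exchanger), Epb42 and Kel each had at most 3.69 normalised reads in any library and were at 0 in all 3 HD-WNT5B libraries, while Rhag was at 0 in all 9. Of the 25 genes of red cell membrane and reticulocytes in the tables, 16 passed the filter, among them membrane skeleton genes that neurons also express, such as Ank1 (823 to 2766 over the 9 libraries), Epb41 (3299 to 9565) and Sptb (22767 to 25685), named after their values were seen. In HD-Control against WT-Control 7 of these fell, where 20.7% of all genes were called lower, and the other 9 were not called (median -0.08). Car2, a carbonic anhydrase of red cells and oligodendrocytes, fell from 10013 ± 275 to 3153 ± 56.5 (-1.67), Dmtn by 0.79 and Prdx2 by 0.16. In HD-WNT5B against HD-Control 5 of the 16 rose and 7 fell, beside 35.8% and 41.7% of all tested genes. Car2 was lower by 0.91 and Prdx2 higher by 1.08. The summed level of the 25 genes was 132326 to 133544 in WT-Control, 112404 to 114074 in HD-Control and 134214 to 140321 in HD-WNT5B, and its part in the globin changes was not tested.

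Among the erythroid transcription factors, the erythroid activators Gata1 and Klf1 gave few reads. Gata1 had at most 1.59 normalised reads in any library and was at 0 in HD-WNT5B, and Gfi1b was at 0 in all 9. Klf1, an activator that binds CACCC boxes, had 3.65 to 14.0 in the control-virus groups and 3.58, 162 and 0 in HD-WNT5B. The list of 16 summed to 29729 to 30242 in WT-Control, 35373 to 35927 in HD-Control and 55218 to 58755 in HD-WNT5B, since other members are well expressed in brain. Of the 12 tested, 4 rose and 5 fell in HD-Control against WT-Control, beside 24.5% and 20.7% of all tested genes. They included genes with roles in neurons: Ldb1, a cofactor of GATA complexes, rose from 7605 ± 78.2 to 15204 ± 157 and Zbtb7a, a repressor of fetal globin, fell by 0.41. In HD-WNT5B against HD-Control 3 rose and 4 fell, beside 35.8% and 41.7% of all tested genes. Zbtb7a was higher by 2.29 and Ldb1 lower by 0.98. Of 16 tested genes of oxygen sensing, 6 rose and 3 fell in HD-Control against WT-Control, beside 24.5% and 20.7% of all tested genes. Hif3a, a hypoxia-inducible factor subunit, rose by 2.66 and Vegfa, the vascular growth factor, fell by 1.37. In HD-WNT5B against HD-Control 4 of the 16 rose and 9 fell, beside 35.8% and 41.7% of all tested genes. Epo, the red cell growth factor, was at or near 0 in every library.

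Markers of other blood cells went different ways. In HD-Control, where the globins were low, 7 of 8 tested neutrophil genes were called higher than in WT-Control and 1, Csf3r, lower (median 4.23). Of all tested genes, 24.5% were called higher and 20.7% lower. S100a8, S100a9, Ngp, Ltf, Retnlg and Mmp8 were at 0 to 4.85 in every WT-Control library and passed the filter only through HD libraries. A lower call was thus hardly possible for them, so neither this count nor the median is a test of direction. S100a8, a subunit of neutrophil calprotectin, went from 2.01 ± 0.532 to 274 ± 28.8 (5.79), its partner S100a9 from 3.28 ± 1.39 to 318 ± 26.7 (5.69), and Retnlg was listed at 0 in WT-Control and at 75.7 to 98.1 in HD-Control. The neutrophil list summed to 552 to 574 in WT-Control, where Csf3r alone held 515 to 541. The sum of the list was 1358 to 1386 in HD-Control and 2250 to 2681 in HD-WNT5B. In HD-WNT5B against HD-Control 4 of its 8 tested genes rose and 1 fell, beside 35.8% and 41.7% of all tested genes. The 1 that fell was the granule gene Ltf, which was at 0 in every HD-WNT5B library. These calls rest on the settings: with the length and GC trend removed, S100a8 stood at -0.30, S100a9 at -0.66 and Retnlg at 0.42 (adjusted p = 0.263, 0.0469 and 0.156), and with a weight per group S100a8, S100a9 and Ltf were not called (adjusted p = 0.0602, 0.215 and 0.0775). Platelet genes summed to 245 to 402 in WT-Control and 263 to 413 in HD-Control (1 of 7 higher and 2 lower). They summed to 45350 to 56244 in HD-WNT5B, of which Gp1bb alone held 44677 to 55298. Gp1bb shares its locus with a septin gene on the same strand, so its reads are uncertain. Of the 7 tested platelet genes, 4 were higher and 1 lower in HD-WNT5B than in HD-Control, beside 35.8% and 41.7% of all tested genes. Pf4, a platelet chemokine, followed the order of the globins, at 10.2 to 12.9 in WT-Control, 1.59 to 2.95 in HD-Control and 21.5 to 85.1 in HD-WNT5B. The HD-Control values of Pf4 rest on few reads, since 1 read counts 0.616 to 0.797 there. The other tested platelet genes did not follow that order. Gp9 had means of 22.3, 3.38 and 2.14 in the same groups, and Itga2b, Clec1b, Gp5, Treml1 and Gp1bb had higher means in HD-Control than in WT-Control. The fall of Pf4 in HD-Control (-1.47, adjusted p = 0.0333) was not called without any 1 of the 6 control-virus libraries (adjusted p = 0.0744 to 0.106). The lymphocyte list summed to 40.1 to 40.8, 10.3 to 17.9 and 0 to 170 in WT-Control, HD-Control and HD-WNT5B, with 1 of 11 genes tested and HD-Control the lower of the control-virus groups, as for the globins. The monocyte list summed to 38.8 to 41.5, 217 to 254 and 78.7 to 255, with 2 of 7 tested. The part of these cells in the globin values was not tested.

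Some vessel genes moved with the globins and others did not. Of 16 endothelial genes, 9 fell and 2 rose in HD-Control against WT-Control (median -0.46), with Itm2a falling from 2664 ± 53.0 to 959 ± 25.4 (-1.47). Of all tested genes, 20.7% were called lower and 24.5% higher in that comparison. Against HD-Control, 8 rose and 5 fell in HD-WNT5B, beside 35.8% and 41.7% of all tested genes. The tight junction gene Cldn5 reached 28897 ± 2268 from 1679 ± 36.0 (4.10). The endothelial sum was 25240 to 25586 in WT-Control, 19353 to 19501 in HD-Control and 55250 to 63253 in HD-WNT5B, the same order of groups as the globins, but Cldn5 alone held 26434 to 30899 of the HD-WNT5B sum. Against WT-Control, 6 of the 16 were higher in HD-WNT5B and 8 lower (median -0.53), beside 35.9% and 42.1% of all tested genes. Among the lower was the efflux transporter Abcb1a, from 2396 to 2449 down to 286 to 405. Mural cell genes summed to 18519 to 18607, 12806 to 12847 and 10264 to 12454 in WT-Control, HD-Control and HD-WNT5B. Of 12, 4 fell in HD-Control, and 4 were higher and 5 lower in HD-WNT5B than in HD-Control. The last 2 counts lie near the shares of all tested genes. Of the mural genes, Vtn rose by 1.10 and the pericyte gene Rgs5 fell by 1.93 in HD-WNT5B against HD-Control. Choroid plexus genes summed to 1923 to 1956, 1897 to 2008 and 12948 to 15740, and Ttr, which rose by 4.21 in HD-WNT5B against HD-Control, alone held 10872 to 14320 of the last. Of the 9 plexus genes, 3 rose there, 1 fell (Kl, by 1.23, and not called at -0.37 with the length and GC trend removed) and 5 were not called, with a median of 0.16. Meningeal genes summed to 6402 to 6456, 5022 to 5104 and 1960 to 2747, with 3 of 9 lower and the other 6 not called in both HD-Control against WT-Control and HD-WNT5B against HD-Control. How much vessel, plexus or meningeal tissue each library held was not measured, and its part in the globin values was not tested.

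The genes whose pattern over the 9 libraries was most like the mean of the 5 were found by the root mean square difference of centred log2 values among 13076 candidates with a mean of at least 100. They were Hdhd3 (0.141), Gng11 (0.217), Dusp19 (0.236), Cdc42ep2 (0.239) and Slc7a10 (0.246), where the median candidate had 1.30. Hdhd3 had 196 ± 9.28 in WT-Control, 68.3 ± 2.66 in HD-Control and 431 ± 138 in HD-WNT5B (SD, n = 3). The mean pattern mixed unlike genes: Hbb-bs (0.376) and Alas2 (0.392) lay nearer to it than Hba-a2 (0.526), Hba-a1 (0.745) and Hbb-bt (1.38). Hbb-bt thus lay farther from the mean of the group it belongs to than the median candidate gene did.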

How the data were processed

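Poly(A) RNA from the 9 brain libraries was prepared with an unstranded kit per the labels' protocols, and reads were aligned with STAR to mm10 per the submitters' processing notes. How reads were counted, and those shared by gene copies handled, is not given in the sources used here. The deposited values are a signal per gene, which the authors made by dividing estimated reads by a library factor. From 97.0% to 98.6% of low values were whole multiples of 1 read (tolerance 0.01). All 21853 Ensembl IDs matched GENCODE M21 symbols. The 15411 genes that reached 10 in 3 or more libraries were tested on log2(value + 3) with limma 3.58.1 (R 4.3.3), a variance trend on the mean and all 9 libraries (6 residual degrees of freedom), with Benjamini-Hochberg adjustment over all tested genes and a threshold of 0.05. Fold changes are on that scale, which understates changes of low genes. The fit was tested on simulated data. The 5 genes, the 17 gene lists and the tests were chosen with earlier results of these data known. Of each list up to 4 genes with the smallest p in a comparison, defining genes at 0 and the 5 genes most like the members were named, and some genes of the lists are not reported here. Other scalings, added constants, filters, spreads, summed copies, a replicate block and each library left out were tried. Planned count tests were not run, since values far below 1 read show that not all are whole reads. The same replicate numbers did not pair libraries. Sequences and identities were computed with Biopython 1.88 under Python 3.11.15, and promoters are from RefSeq.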

Additional observations from a re-analysis of the deposited data

How the results depend on the processing

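Of the 15 changes of single genes described in the report (5 genes in 3 comparisons), those not named here kept their direction and their side of the threshold under every alternative that was run. The 5 falls in HD-Control kept their direction in all 22 alternatives. The call of Alas2 was lost with an added constant of 10 (-1.41, adjusted p = 0.0526), with no filter on low values (-1.60, adjusted p = 0.0599) and when a control-virus library was left out (-1.78 to -1.38). Hbb-bt in HD-WNT5B against HD-Control turned to -0.18 with libraries scaled to equal totals, to -1.22 with the length and GC trend removed, and ranged from -0.34 to 0.99 with a library left out. Alas2 in HD-WNT5B against WT-Control ranged from 0.35 to 1.53 with a library left out. Removing the length and GC trend, an alternative chosen after seeing the data, turned Hbb-bs (-0.15), Hba-a2 (-0.17), Pf4 (-0.05) and Vtn (-0.19) in HD-WNT5B against WT-Control, and S100a8 (-0.30) and S100a9 (-0.66) in HD-WNT5B against HD-Control. Equal totals turned Uros (-0.02) in HD-WNT5B against HD-Control and Slc25a37 (-0.28) and Vtn (-0.06) in HD-WNT5B against WT-Control. With near-identical copies summed, Hbb-bt takes the value of its pair, which Hbb-bs dominates (3.39 and 1.54 in the HD-WNT5B comparisons). The cause of the other changes was not tested.

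Equal totals moved the median of all genes by -0.54 and -0.56 in the comparisons with HD-WNT5B, where 32.0% and 31.7% of calls were then higher against 46.2% and 46.0%, and removing the trend made it 55.8% and 55.1%. The count of genes changed in HD-Control against WT-Control rose from 6957 to 12779 with a weight per group and to 12908 with only those groups fitted. The weight made the spread of HD-WNT5B count for less, and the fit of only those groups left it out. With the replicate number as a block, Alas2 in HD-Control against WT-Control kept -1.60 but was not called (adjusted p = 0.0814), and no other call of the 5 genes changed. Libraries sharing a number did not pair: their deviations correlated at -0.0782 to 0.0215, and 2 of 9 libraries matched best with their own number. Planned count tests were not run. Low read numbers of Hbb-bt (17 to 97 reads) and Alas2 (35 to 155) limit the HD-WNT5B values.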
